A study of Homo sapiens with 4 samples.

Results

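The long noncoding RNAs (lncRNAs) MALAT1 and GAS5 were measured in HCT116 multicellular spheroids (MCS) and in HCT116 monolayers. HCT116 is a human colon carcinoma cell line, and every culture was untreated. There were 2 independent spheroid cultures and 2 independent monolayer cultures, with 1 array of 54675 probe sets per culture. The study used the comparison to characterize MCS, which have a proliferating rim around a quiescent and hypoxic core, and an array of a whole spheroid culture does not separate the core from the rim. All values come from a single cell line.

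The probe sets were chosen by their gene symbol in the platform annotation, which had to be the only one given, among NEAT1, MALAT1, GAS5, SNHG1, SNHG12 and H19. This found 13 probe sets of the 54675, 12 for MALAT1 and 1 for GAS5. Under this rule 2 of the 6 genes have values, among 19775 genes with such a probe set. Probe sets assigned to several genes at once were left out by this rule, whether or not the other genes lie within the same transcript. They comprised 9 shared by NEAT1, 1 by SNHG1, 3 by SNHG12, 2 by H19 and a further 4 by GAS5, so that NEAT1, SNHG1, SNHG12 and H19 have no value here.

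MALAT1 is an abundant nuclear RNA that gathers at nuclear speckles, the bodies where splicing factors are stored, and it is associated with metastasis and with the control of alternative splicing. Its end is not a poly(A) tail but a triple helix, formed after RNase P cuts the transcript and releases the small cytoplasmic mascRNA. GAS5 was found as a transcript that accumulates in growth-arrested cells. It is a host gene: small nucleolar RNAs (snoRNAs), which guide the chemical modification of ribosomal RNA, are made from its introns. Its spliced RNA belongs to the transcripts whose translation depends on growth signals, is degraded by nonsense-mediated decay when translated, and can bind the glucocorticoid receptor.

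The start regions of both genes are shown because MALAT1 was higher in cultures in which hypoxia-inducible genes were also higher. Each run covers 250 bases before and 50 bases after a start in RefSeq (GRCh38.p14). The 5-letter core bound by hypoxia-inducible factors, ACGTG or GCGTG on either strand (on the strand shown also CACGT or CACGC), is in capitals. The first MALAT1 start is at chr11:65497488-65497787 (plus strand), the second at chr11:65498795-65499094 (plus strand), and the GAS5 start at chr1:173868996-173869295 (minus strand).
MALAT1 first start: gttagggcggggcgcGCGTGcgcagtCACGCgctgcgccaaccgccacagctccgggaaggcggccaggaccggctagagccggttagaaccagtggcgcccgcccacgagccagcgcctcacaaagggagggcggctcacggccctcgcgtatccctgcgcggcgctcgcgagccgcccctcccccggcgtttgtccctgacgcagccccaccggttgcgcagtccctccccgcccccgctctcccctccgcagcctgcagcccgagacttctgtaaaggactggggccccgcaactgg
MALAT1 second start: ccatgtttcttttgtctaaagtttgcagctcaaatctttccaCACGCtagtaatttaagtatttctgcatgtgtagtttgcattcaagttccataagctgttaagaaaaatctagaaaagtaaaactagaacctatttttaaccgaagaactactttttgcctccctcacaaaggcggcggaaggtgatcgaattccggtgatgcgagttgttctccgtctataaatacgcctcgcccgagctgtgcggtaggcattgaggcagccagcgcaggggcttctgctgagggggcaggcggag
GAS5 start: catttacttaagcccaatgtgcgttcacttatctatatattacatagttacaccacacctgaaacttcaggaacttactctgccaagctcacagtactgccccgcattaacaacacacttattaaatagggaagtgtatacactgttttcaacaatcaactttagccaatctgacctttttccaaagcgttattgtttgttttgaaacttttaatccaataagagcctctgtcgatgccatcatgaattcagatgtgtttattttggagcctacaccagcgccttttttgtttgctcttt
The first MALAT1 window held 2 matches, 235 and 224 bases before the start, the second held 1, 208 bases before the start, and the GAS5 window held 0. Of 35116 windows of the same length, 48.4% held at least 1 match. The windows differed in base composition, with 73.7% and 46.0% G and C for MALAT1 and 37.7% for GAS5, against a median of 58.7% over all windows. A match is a run of letters and not a measured binding site.

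MALAT1 signals were higher in both spheroid cultures than in both monolayer cultures with each of its 12 probe sets. The ratio of the mean signals ran from 2.59 to 9.90 over the probe sets, and the log2 difference from 1.24 to 3.13, with a median of 1.94. All log2 differences are spheroid minus monolayer, taken after adding 32 to each signal, a step that makes the change of dim probe sets look smaller. When all 54613 probe sets other than controls were fitted together, 11 of the 12 were higher in spheroids (limma, Benjamini-Hochberg adjusted p under 0.05), whereas 3.53% of all probe sets were. The exception was 226675_s_at (adjusted p = 0.0649). Both spheroid arrays lay above both monolayer arrays for 27.9% of all probe sets in the table. The 12 probe sets are assigned to the same gene and are not replicates of the comparison, for which n = 2 per group. Which part and strand of MALAT1 each reads was not examined. In such bulk RNA, a higher level per cell and more cells that express the gene cannot be told apart.

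The tests below were made over the 15911 probe sets with a mean signal above 300 on the 4 arrays, the expression threshold of the study. Of the MALAT1 probe sets 11 passed, and 11 were called higher, against 16.8% of all tested probe sets. This count is not independent of the threshold, since 6 of the 11 had monolayer means under 300 and passed through their spheroid signals. The 5 whose monolayer mean alone was above 300 were 224558_s_at, 228582_x_at, 1558678_s_at, 224567_x_at and 226675_s_at. For 33.4% of tested probe sets both spheroid arrays lay above both monolayer arrays. Just inside the threshold lay 224568_x_at, with a mean of 395, and just outside it 223578_x_at, with a mean of 193.

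**Figure D1:**
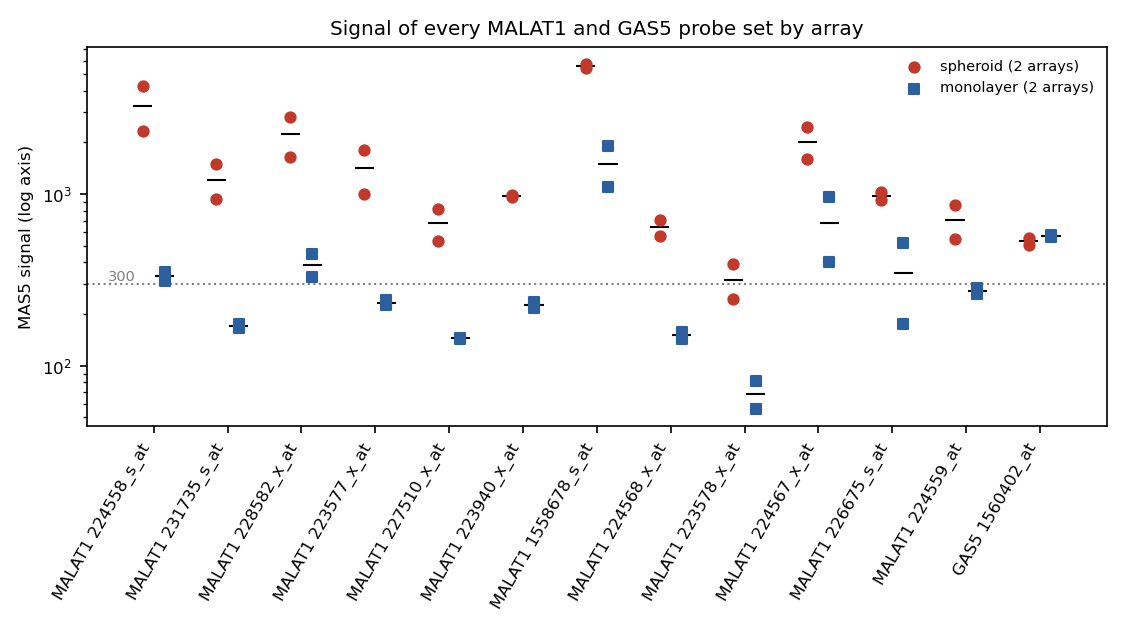
MAS5 signal (y, log axis) of each MALAT1 probe set and of the GAS5 probe set (x), with red circles for the 2 spheroid arrays, blue squares for the 2 monolayer arrays, black bars for group means and a dotted line at the signal threshold of 300. Red and blue do not overlap in any MALAT1 column, while the GAS5 signals lie between 504 and 579.

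The names of Affymetrix probe sets tell how specific their probes are. Those ending in _at were designed for 1 transcript, those in _s_at match several transcripts, often of a single gene, and some probes in those ending in _x_at can match unrelated sequences. MALAT1 had 1 probe set of the first kind, 4 of the second and 7 of the third. The most specific, 224559_at, had signals of 867 and 548 in spheroids, against 284 and 262 in monolayers. Its log2 difference of 1.24 ± 0.27 (SE) was the smallest of the 12 (limma, adjusted p = 0.0059). The groups did not overlap, and the spheroid cultures were further apart than the monolayer cultures. Without spheroid replicate 1 the difference was 0.93. Such a fit has 1 array left in a group, so its scatter comes from the other group alone. Calls kept or lost in such fits, here and below, are therefore not comparable with calls from all 4 arrays.

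The _s_at probe sets had both the largest difference and the brightest signals. With 224558_s_at, spheroids gave 2318 and 4242 and monolayers 313 and 350, and the log2 difference was 3.13 ± 0.27 (limma, adjusted p = 3.42e-05). With 231735_s_at, signals were 1489 and 930 in spheroids and 176 and 166 in monolayers (2.57 ± 0.27). In both, the lowest spheroid signal was more than 5 times the highest monolayer signal (6.62 and 5.28 times). The brightest, 1558678_s_at, had 5707 and 5446 in spheroids, against 1916 and 1094 in monolayers (1.92 ± 0.23). With 226675_s_at, spheroids had 1033 and 920 and monolayers 516 and 175 (1.58 ± 0.38, limma adjusted p = 0.00975). Here the spheroid cultures were alike and the monolayer cultures were 2.95-fold apart. The difference of 226675_s_at was 1.498 without spheroid replicate 1 and 0.88 without monolayer replicate 2.

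The 7 _x_at probe sets differed by 1.62 to 2.40, inside the range of the _s_at probe sets. With 228582_x_at, signals were 2825 and 1653 in spheroids and 330 and 447 in monolayers (2.40 ± 0.27). With 223577_x_at they were 1818 and 1002 in spheroids and 241 and 226 in monolayers (2.38 ± 0.28). In these 2, and in the next, the spheroid cultures lay further apart than the monolayer cultures. With 227510_x_at, signals were 819 and 535 in spheroids and 146 and 143 in monolayers (1.98 ± 0.28). With 223940_x_at they were 965 and 990 in spheroids and 216 and 236 in monolayers (1.97 ± 0.22), the closest agreement between spheroid cultures. With 224568_x_at, spheroids had 571 and 709 and monolayers 144 and 157 (1.87 ± 0.26). With 224567_x_at, spheroids had 2455 and 1594 and monolayers 960 and 402 (1.62 ± 0.35), and the difference was 1.02 without monolayer replicate 2. The dimmest, 223578_x_at, had 391 and 244 in spheroids and 81.7 and 56.0 in monolayers (1.77 ± 0.39 in the fit of all probe sets, limma adjusted p = 0.0381).

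**Figure D2:**
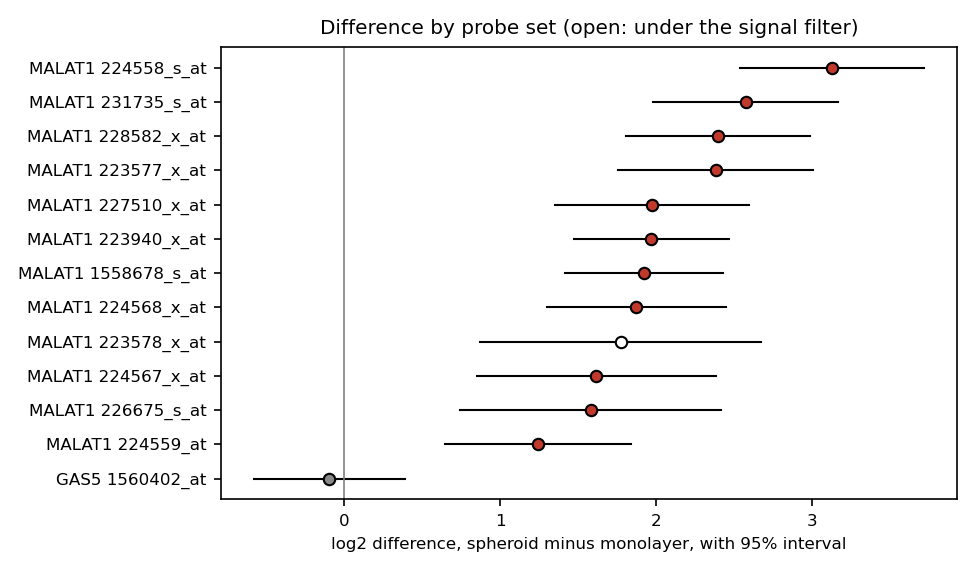
Log2 difference between spheroid and monolayer arrays with its 95% interval (x) for each probe set (y), red where called higher, grey where not called, and open for the probe set under the signal threshold, taken from the fit of all probe sets. The MALAT1 intervals all lie above 0, and that of GAS5 covers 0.

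Within a group, the MALAT1 probe sets did not share one order of the cultures. Spheroid replicate 1 was the brighter for 9 of the 12, with ratios of replicate 1 over replicate 2 between 0.546 and 1.81. Monolayer replicate 1 was the brighter for 8 of the 12, with ratios between 0.738 and 2.95, and it exceeded replicate 2 by more than 1.5 times for 3, namely 1558678_s_at, 224567_x_at and 226675_s_at. The control probe sets of 18S ribosomal RNA, which like MALAT1 lacks a poly(A) tail, had signals of 2114 and 581 in spheroids and 7182 and 501 in monolayers at the 5′ end. In the middle they were 2860 and 706 in spheroids and 5789 and 937 in monolayers, and at the 3′ end 1488 and 696 in spheroids and 3483 and 532 in monolayers. Replicate 1 was the higher array of its group at all 3 positions, and spheroid replicate 2 lay below both monolayer arrays in the middle but between them at both ends. The part of ribosomal RNA in the MALAT1 signals was not tested. Without monolayer replicate 1 the 11 tested probe sets differed by 1.30 to 3.05. With 1 monolayer array left, the monolayer scatter does not enter that fit, so its calls cannot test it.

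MALAT1 probe sets ranked 71 to 800 of 15911 when tested probe sets were ordered by their log2 difference from highest to lowest, and 10 of the 11 were among the first 795, the top 5%. Since 6 of the 11 passed the threshold through their spheroid signals, this share is not independent of it. The 5 with monolayer means above 300 ranked between 71 and 447. Probe sets at least 2-fold higher made up 7.72% of those tested. The median log2 difference was -0.013 over all tested probe sets. The Bacillus spike-in RNAs were 1.82-fold brighter on spheroid arrays. Their geometric means were 1640 and 1113 on spheroid arrays and 700 and 787 on monolayer arrays. Scaling to them lowered the median of all tested probe sets to -0.84. The gap between the spheroid arrays in these spike-ins enters every scaled value. The MALAT1 probe sets then differed by 0.44 to 2.30, and 8 of the 11 were called higher. The 3 not called were 224567_x_at (0.78, limma adjusted p = 0.117), 226675_s_at (0.77, adjusted p = 0.124) and 224559_at (0.44, adjusted p = 0.384). The first 2 of these are among the 5 with monolayer means above 300.

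**Figure D3:**
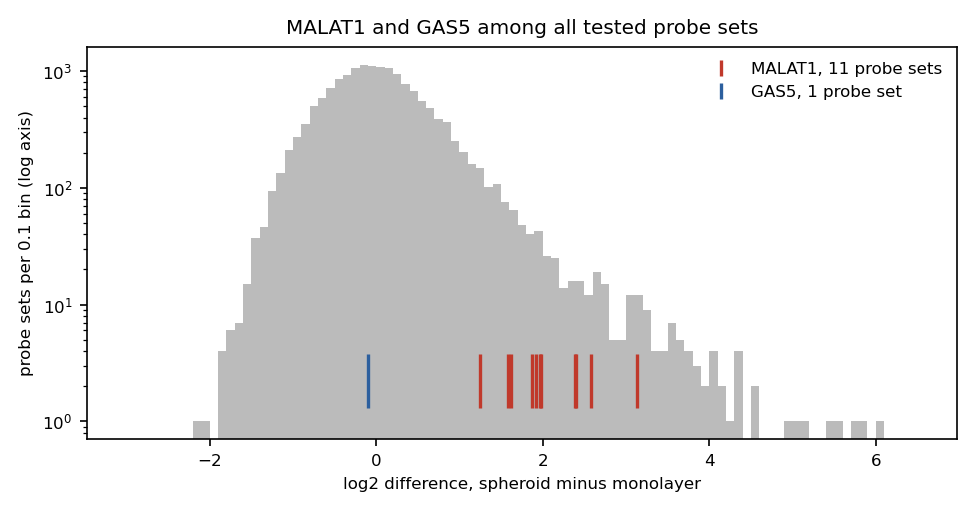
Distribution of the log2 difference (x) over the tested probe sets, as the number in each 0.1 bin (y, log axis), with red ticks for 11 MALAT1 probe sets and a blue tick for the GAS5 probe set. The MALAT1 ticks run from 1.24 to 3.13 on the upper side, and the GAS5 tick stands at -0.096 near the middle.

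MALAT1 was set against the other genes that the array reads with many probe sets. There were 132 genes with at least 8 probe sets of one symbol, fitted with no signal threshold. The probe sets of 12 of them all had differences of one sign, 10 positive and 2 negative. MALAT1 had the highest median difference of the 132, whose medians ran from -0.68 to 1.94. Its own probe sets spanned 1.88 on the log2 scale, against a median span of 1.34, and 110 genes had a smaller span. Most MALAT1 probe sets passed the signal threshold used above, but dim genes were kept among the 132. MEG3, for example, had its brightest probe set below that threshold. The constant added to each signal makes differences of dim probe sets look smaller. Whether the rank, the shared sign and the span of MALAT1 stand out among genes of similar signal was not tested. The next highest medians were 1.54 for ARSD (-0.71 to 2.03), 1.25 for LPP (0.11 to 2.32) and 1.21 for SLC25A37 (0.54 to 2.33), named after their values were seen.

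**Figure D4:**
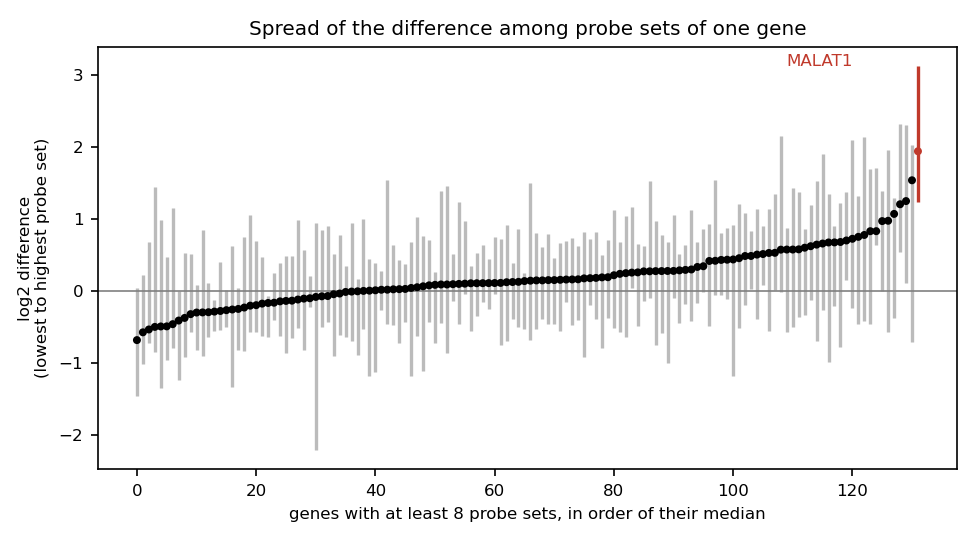
Lowest to highest log2 difference (lines) and median (points) over the probe sets of each of 132 genes with at least 8 probe sets, ordered by median (x), with no signal threshold. MALAT1, in red, stands at the right end with a median of 1.94 and is the only gene whose lowest probe set exceeds 1.

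GAS5 did not differ beyond the error of the fit. Its probe set, 1560402_at, had signals of 558 and 504 in spheroids, against 579 and 559 in monolayers. The log2 difference was -0.096 ± 0.22 (limma, adjusted p = 0.765), with a 95% interval from -0.58 to 0.39, so that changes of either sign within it are not excluded by these arrays. Both spheroid signals lay below both monolayer signals, as they did for 34.5% of all tested probe sets, but the nearest signals of the groups, 558 and 559, were almost equal. In the fit of all probe sets it was not called either (adjusted p = 0.858), while 2.89% of probe sets were called lower and 19.7% had both spheroid signals below both monolayer signals. With spike-in scaling the difference was -0.91 (adjusted p = 0.0697), close to the shift of all probe sets. Which part of GAS5 this probe set reads was not examined, and in RefSeq the gene overlaps ZBTB37 and GAS5-AS1, as MALAT1 overlaps its antisense RNA TALAM1 and mascRNA.

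Genes with the most similar profile over the 4 arrays were sought with 1 probe set per gene, by the largest gap between log2 values centred on their own mean. Nearest to 1558678_s_at of MALAT1 were the adenylosuccinate synthase ADSS1 (largest gap 0.091), the coagulation inhibitor TFPI (0.11) and the complement-related protease C1RL (0.14). These had log2 differences of 2.00, 1.79 and 2.08. TFPI, for example, had signals of 2517 and 2535 in spheroids, against 972 and 513 in monolayers. The match to 1558678_s_at includes its 1.75-fold gap between the monolayer cultures, and the other MALAT1 probe sets were not used for it. Nearest to GAS5 were the ceramide synthase CERS5, CIAO1 of iron-sulphur protein assembly and NACC2, with largest gaps of 0.012, 0.014 and 0.021. Within 0.1 lay 235 genes for GAS5 and 1 for 1558678_s_at. The gap is an absolute measure and GAS5 was nearly flat, so these 2 counts are not comparable.

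Other lncRNAs were measured in both directions. Lists of related genes used the brightest probe set of each gene, for which 17% of 8721 tested genes were higher and 18.8% lower, with a median of -0.030. After scaling to the spike-ins, 1.97% were higher and 42.9% lower. Of 29 other lncRNAs listed, 12 were tested, 6 were higher and 3 lower (median 0.47). UCA1, an lncRNA first described in bladder carcinoma, had 13983 and 14760 in spheroids, against 1513 and 2771 in monolayers, and its log2 difference was 2.79 ± 0.23 (limma, adjusted p = 2.95e-05). Its groups did not overlap. LINC-PINT, a p53-regulated RNA, had 1159 and 462 in spheroids, against 211 and 178 in monolayers (1.76 ± 0.37). Its call was lost without spheroid replicate 1 (1.13). DANCR, named for restraining differentiation, was lower with 1566 and 1905 in spheroids and 4263 and 3947 in monolayers (-1.23 ± 0.16). DLEU2, the host of microRNAs that restrain the cell cycle, was also lower, by -1.16 ± 0.19. With spike-in scaling 1 was higher and 4 were lower (median -0.36).

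Most host genes of snoRNAs, besides GAS5, were not tested, and 4 of the 7 tested were not called. For comparison, 17% of all 8721 tested genes were higher and 18.8% lower, and 1.97% and 42.9% after spike-in scaling. Whether the host genes differ from these shares was not tested. Of 27 listed, 10 had a probe set with 1 gene symbol. The others had none and could not be tested, whatever their signal. Of the 10, 7 passed the threshold and were tested. Of these, 2 were higher and 1 lower (median 0.25), and after spike-in scaling 0 and 2 (median -0.61). ZFAS1, a spliced noncoding host RNA, had 29166 and 29672 in spheroids, against 15882 and 16638 in monolayers (0.85 ± 0.11, limma adjusted p = 3.32e-04). SNHG32 differed by 0.67 ± 0.15 and nucleolin (NCL), whose protein acts in the nucleolus, by -0.51 ± 0.11. The calls of both were lost without spheroid replicate 1 (0.52 and -0.47), where the counts were 1 higher and 0 lower, while 4 were higher without monolayer replicate 2. Of 15 tested genes for the proteins that assemble with snoRNAs, 10 were lower and 0 higher (median -0.57), and 13 lower after spike-in scaling (median -1.43). The assembly ATPases RUVBL1 and RUVBL2 differed by -0.76 ± 0.14 and -0.75 ± 0.13, and the assembly factors NUFIP1 and SHQ1 by -0.74 ± 0.18 and -0.72 ± 0.16. The count was 6 without spheroid replicate 2, and the call of NUFIP1 was lost without monolayer replicate 2 (-0.69).

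Among genes for proteins of nuclear bodies, calls went in both directions or were lower only. Of all 8721 tested genes, 17% were higher and 18.8% lower, and 1.97% and 42.9% after spike-in scaling. Whether the 2 lists below differ from these shares was not tested. Of 24 tested nuclear speckle genes, 3 were higher and 8 lower (median -0.076), and 0 and 12 after spike-in scaling (median -0.93). The median of all tested probe sets after this scaling was -0.84. PNISR, a serine- and arginine-rich protein, was higher by 0.93 ± 0.23. ACIN1, a component of the exon junction machinery, differed by -0.86 ± 0.25, the splicing factor U2AF2 by -0.79 ± 0.18 and SRSF10 by -0.75 ± 0.15. Without spheroid replicate 1 the calls of all 3 higher genes, PNISR (0.64), SRSF5 (0.58) and CLK3 (0.56), were lost, as were those of U2AF2 (-0.68) and ACIN1 (-0.55), and the counts were 1 higher, a gene not called with all arrays, and 3 lower. Without spheroid replicate 2 there were 4 lower, and without monolayer replicate 1 there was 1 higher, while ACIN1 lost its call (-0.75). Paraspeckles are bodies built on NEAT1, and of 21 tested genes for their proteins 9 were lower and 0 higher (median -0.42). TARDBP, which encodes TDP-43, had 3493 and 4011 in spheroids, against 8377 and 9464 in monolayers (-1.24 ± 0.14, limma adjusted p = 2.13e-04). UBAP2L, the core protein SFPQ and EWSR1 differed by -1.04 ± 0.16, -0.999 ± 0.12 and -0.73 ± 0.15. NONO, the partner of SFPQ, was not called (-0.16 ± 0.14). There were 4 lower without spheroid replicate 1, and 20 with spike-in scaling (median -1.26).

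Nonsense-mediated decay, the pathway that degrades spliced GAS5, had 9 tested genes, of which 1 was higher and 2 lower (median -0.37), and 0 and 7 after spike-in scaling (median -1.24). Of all 8721 tested genes, 17% were higher and 18.8% lower, and 1.97% and 42.9% after spike-in scaling. Whether the lists of this paragraph differ from these shares was not tested. The exonuclease XRN1 had 1069 and 1154 in spheroids, against 567 and 607 in monolayers (0.89 ± 0.20). The exon junction proteins RBM8A and EIF4A3 differed by -0.79 ± 0.14 and -0.37 ± 0.12. The call of EIF4A3 was lost without spheroid replicate 1 (-0.35), spheroid replicate 2 (-0.40) or monolayer replicate 2 (-0.29), and 1 gene was lower without either spheroid replicate in turn. The helicase UPF1 was not called (-0.37 ± 0.21). Of 14 tested hypoxia-inducible genes and hypoxia-inducible factor subunits, 12 were higher and 0 lower (median 2.19), and 9 higher after spike-in scaling (median 1.39). NDRG1, ANKRD37, P4HA1 and PDK1 differed by 4.91 ± 0.15, 4.33 ± 0.46, 3.76 ± 0.18 and 2.64 ± 0.18, and EPAS1, the HIF-2 alpha subunit, by 1.61 ± 0.16. Genes near H19 or tied to its imprinting had 10 tested members, with 4 higher and 1 lower (median 0.33), and 1 and 3 after spike-in scaling (median -0.53). CDKN1C and KCNQ1, of the neighbouring imprinted domain, differed by 3.10 ± 0.21 and 1.30 ± 0.28, the growth factor receptor IGF1R by 0.83 ± 0.25 and the mitochondrial ribosomal gene MRPL23 by -0.87 ± 0.15. Without spheroid replicate 1 the call of KCNQ1 was lost (1.05) and 2 were higher, and IGF1R lost its call without spheroid replicate 2 (0.64) or monolayer replicate 2 (0.66).

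**Figure D5:**
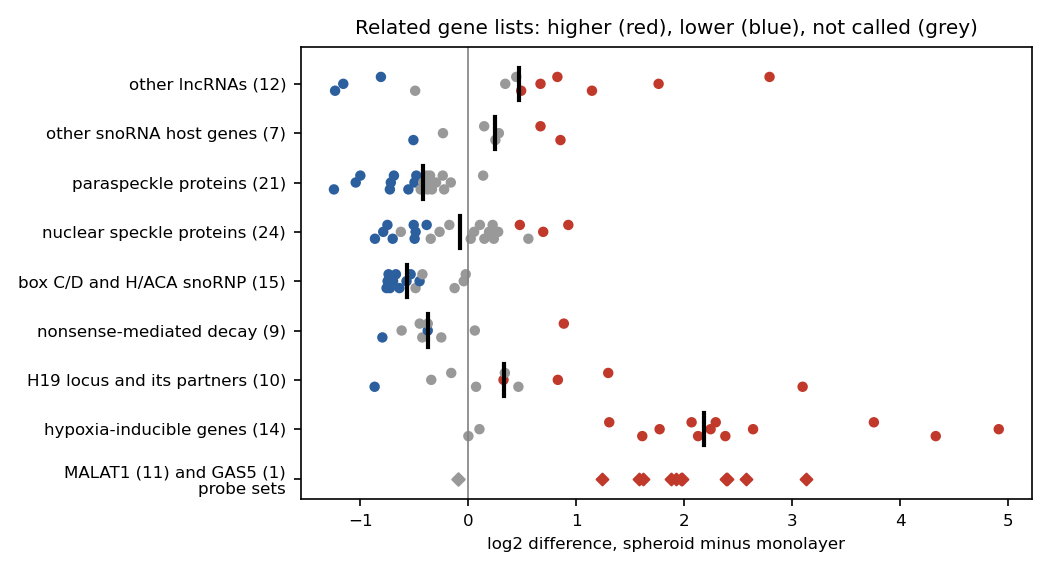
Log2 difference (x) of the tested genes of each related list (y, number tested in brackets), red where higher, blue where lower, grey otherwise, medians as black bars; diamonds in the bottom row are MALAT1 and GAS5 probe sets. Medians ran from -0.57 for snoRNA-associated proteins to 2.19 for hypoxia-inducible genes, before spike-in scaling, which lowered each of them.

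The arrays had equal trimmed means of 500.1, and 27.5% to 29.97% of probe sets were above 300 units. Of 13 colon epithelial markers 7 were tested, of which 4 were higher and 0 lower, and 2 higher and 2 lower after spike-in scaling. The shares over all 8721 tested genes were 17% higher and 18.8% lower, and 1.97% and 42.9% after that scaling. EPCAM, KRT8 and KRT18 were not called (0.016, -0.49 and -0.11). The tight junction genes CLDN4 and CLDN3, the adhesion gene CDH1 and the keratin gene KRT19 were higher, by 2.73 ± 0.22, 2.50 ± 0.27, 1.73 ± 0.20 and 0.79 ± 0.12. CLDN4, for example, had 2773 and 2007 in spheroids, against 312 and 346 in monolayers. The intestinal markers CDX1, CDX2, VIL1, LGALS4, CEACAM5 and KRT20 were below the threshold. Of 20 fibroblast, endothelial and leukocyte markers with a probe set, 1 passed the threshold, COL1A1, with 2222 and 2659 in spheroids and 869 and 658 in monolayers. The ratio of 3′ to 5′ signal was 2.82 and 3.003 for ACTB in spheroids and 2.64 and 2.34 in monolayers, and for GAPDH 0.931 and 0.921 in spheroids and 1.07 and 1.02 in monolayers, so that the 2 controls differed in opposite directions. The part of these values in the differences was not tested.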

How the data were processed

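Total RNA from 2 spheroid and 2 monolayer cultures of HCT116 was labelled as biotin-cRNA and hybridized to 1-colour Affymetrix arrays, 1 per culture. Each deposited value is the signal intensity of a probe set on a linear scale, made by the authors with MAS5 per the labels; its version and a genome build are not given in the sources used here. Scaling each array to one total removes any change in RNA per cell. Detection calls were not used here. The number of arrays limits the precision.

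Of 54675 probe sets 62 were controls, 41091 had 1 gene symbol, 1801 several and 11721 were not listed in the platform annotation. Matching gene identifiers to RefSeq (GRCh38.p14) changed 0 symbols.

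Spheroid minus monolayer differences of log2(signal + 32) were fitted with limma (version 3.58.1, R 4.3.3; lmFit, eBayes with an intensity trend, two-sided) over the 15911 probe sets with a mean above 300, with the Benjamini-Hochberg adjustment over all of them and 2 residual degrees of freedom. Scripts were tested on simulated data. Members and lists were chosen with earlier results of these data known. All member probe sets are named, with up to 4 called genes of each list by size of difference (EPAS1, NONO and UPF1, chosen after their values were seen, were added), and the 3 genes nearest in profile. Related lists used the brightest probe set with 1 symbol. Alternatives were other constants, filters, scalings, variance models and tests, the replicate number as a block, 1 probe set per gene, and each array left out; their use on list counts was chosen after seeing the data.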

Additional observations from a re-analysis of the deposited data

How the results depend on the processing

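The MALAT1 differences kept their sign under every alternative run, and GAS5 stayed negative and uncalled. Only quantile normalization and spike-in scaling could have reversed a sign. The other alternatives could not, because spheroid and monolayer signals did not overlap for any of these probe sets. For those alternatives the kept sign is no test of the difference. Of the tested members, 11 were called higher and 0 lower with constants of 16 or 64, quantile normalization, no intensity trend or the replicate number as a block. With no filter 11 of 12 MALAT1 probe sets were called and with a mean signal above 100 there were 12. Spike-in scaling and an unpaired t-test at an unadjusted p under 0.05 each called 8 higher and 0 lower. After Benjamini-Hochberg this t-test, which has 2 degrees of freedom per probe set, called 0. The study ranked the probes of these arrays by mean ratios for gene set enrichment, and its array methods describe no t-test. With 1 probe set per gene 1 member gene, MALAT1, was called. The tested MALAT1 probe sets differed by 0.93 to 3.56 without spheroid replicate 1 and by 0.88 to 3.20 without monolayer replicate 2. Such a fit has 1 array in a group, so its scatter comes from the other group alone. Calls from such fits are not comparable with those from all 4 arrays.

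Over all probe sets 2674 were higher and 2643 lower. Spike-in scaling gave 321 and 6558, and the unpaired t-test after Benjamini-Hochberg 1 and 2 (2148 and 2285 at an unadjusted p under 0.05). With 1 probe set per gene, and fewer tested, 1656 were higher and 1799 lower. With no filter 1578 were lower. Leaving out 1 array gave 1774 to 2488 higher and 1617 to 2375 lower, in each case fewest without spheroid replicate 1. The replicate block gave 3719 and 3772, and deviations of same-numbered arrays correlated at 0.364, but with 2 pairs the arrays share only a number. Where the construction of an alternative does not show it, the cause was not tested. The lowest MALAT1 signal, 56.0, was above those of unspiked bacterial controls (4.47 to 34.97). This does not show that a signal of this size is above background, since detection calls were not used. Of the endothelial markers, for example, PECAM1 had 117 and 107 in spheroids and 199 and 136 in monolayers. VWF had 4.65 and 16.9 in spheroids and 18.1 and 15.7 in monolayers. Both were picked after their values were seen.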

Other observations

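The nearest tested genes on each side of MALAT1 and GAS5 in RefSeq, chosen by position after the data had been opened, gave these values. Before MALAT1 on chromosome 11, FRMD8 had 2129 and 2428 in spheroids, against 1628 and 1756 in monolayers (log2 difference 0.42 ± 0.17, limma adjusted p = 0.0759), and DPF2 differed by 0.22 ± 0.16. After it, LTBP3, which binds latent TGF-beta, differed by 0.56 ± 0.22 and was not called, and ZNRD2 was lower, with 870 and 767 in spheroids and 1859 and 1660 in monolayers (-1.08 ± 0.19, adjusted p = 0.00182). Around GAS5 on chromosome 1, the centromere gene CENPL was lower (-0.69 ± 0.18), KLHL20 and RC3H1 were not called (0.044 ± 0.21 and 0.62 ± 0.22), and RABGAP1L was higher, with 894 and 951 in spheroids and 395 and 391 in monolayers (1.17 ± 0.21, adjusted p = 0.00234).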
